A study of Mus musculus with 10 samples.

Results

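The core pluripotency genes described here are 8 genes taken by name alone, Pou5f1, Sox2, Sall4, Lin28a, Utf1, Dppa5a, Fgf4 and Tdgf1, of the 24386 genes listed for each sample. All 8 names were found in all 10 samples, 7 carried counts and passed the filter on low counts, and Sox2 was listed at 0 throughout. TT-seq (transient transcriptome sequencing) was used to read newly made RNA: cells take up the nucleotide 4-thiouridine (4sU) for a few minutes and only the labelled RNA is purified and sequenced. The samples came from TX1072, a female mouse embryonic stem cell line from a cross of Mus musculus castaneus (Cast) with C57BL/6 (B6), in which doxycycline (DOX) turns on Xist from its own place on the B6 X chromosome. Xist is the RNA that silences the X chromosome it is made from, and the study used the time course to follow that silencing.

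There were 5 groups of 2 samples each, taken at 0 h, without DOX, or 4, 8, 12 or 24 h after DOX was added to 1 µg/ml. Every group was labelled as the wild type (WT) genotype of TX1072, with the strain given as CAST / C57BL/6. Every group had also been grown for 24 h in medium with 15% serum, LIF at 1000 u/mL and 2i, which blocks the kinases MEK and GSK3, before DOX, and was labelled with 0.5 mM 4sU for 5 min. A single cell line was used, and no line without inducible Xist was given DOX, so Xist, DOX itself and the added time in culture cannot be told apart. The labels do not say whether replicates were separate cultures, and the study speaks of biological duplicates where it averages gene silencing. The p-values measure the spread between these samples, whatever its source.

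The depth was 18809046 to 22274929 counted read pairs per sample, of which 49.2 to 52.8% could be assigned to an allele. Xist stood at 1.48 and 1.42 CPM at 0 h and between 334 and 669 CPM in the 8 samples with DOX, so induction went with the labels. CPM are counts per 1000000 counts of a sample, its total being scaled between samples by TMM (trimmed mean of M-values). Replicate 1 at 0 h stood apart, with the lowest share of read pairs assigned to either allele, 49.2%. The 0 h pair also differed most, with a chi-square of 10.8 per degree of freedom against 5.08 to 5.81 at the other times. The members' median changes in total counts at each time are therefore also given without replicate 1 at 0 h. Levels are relative to all other genes in a sample, because no scaling to the added spike-in RNA is stated. In these bulk samples, fewer cells that express a gene and less RNA per cell cannot be told apart.

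Pluripotent cells can form all tissues of the embryo, and in mouse embryonic stem cells this state is held by transcription factors that bind together at enhancers and at each other's genes. Pou5f1 (also called Oct4) and Sox2 form the best known such pair, and both stay on in the naive state and in the later, primed state. In this Pou5f1 and Sox2 differ from naive genes such as Nanog or Klf4, which fall when cells leave the naive state.

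The promoters of 4 members are shown. Pou5f1, Fgf4 and Tdgf1 were taken for their overlapping levels per length of gene. Sox2 was taken because it has its own start site although no read pair was assigned to it. A link between the sequences and these counts was not tested. Sequences are from RefSeq (GRCm38.p6, which is mm10), run 5′ to 3′ on the gene's strand from 250 bases before the start site to 50 after it, and were found for 6 of 8 members, Sall4 and Dppa5a having no entry. Capitals mark matches, on either strand, to the octamer ATGCAAAT that Pou5f1 binds, TATAAA, the GC box GGGCGG, the CCAAT box or ACAAAG, a core that Sox proteins bind. Windows are chr17:35505782-35506081 (plus strand) for Pou5f1, chr3:34649745-34650044 (plus) for Sox2, chr7:144861136-144861435 (plus) for Fgf4 and chr9:110946109-110946408 (minus) for Tdgf1.
Pou5f1: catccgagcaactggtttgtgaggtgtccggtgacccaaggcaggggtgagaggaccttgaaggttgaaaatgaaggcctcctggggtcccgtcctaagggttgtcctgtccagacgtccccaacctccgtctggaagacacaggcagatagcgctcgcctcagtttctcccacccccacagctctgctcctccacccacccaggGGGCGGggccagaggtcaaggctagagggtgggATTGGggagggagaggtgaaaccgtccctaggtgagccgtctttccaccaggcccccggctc
Sox2: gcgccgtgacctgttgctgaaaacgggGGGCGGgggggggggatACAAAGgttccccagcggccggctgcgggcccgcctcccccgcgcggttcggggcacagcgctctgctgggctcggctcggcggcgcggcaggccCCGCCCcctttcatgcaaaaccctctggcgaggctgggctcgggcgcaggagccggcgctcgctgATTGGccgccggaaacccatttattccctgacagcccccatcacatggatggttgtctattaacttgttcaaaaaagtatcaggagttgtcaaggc
Fgf4: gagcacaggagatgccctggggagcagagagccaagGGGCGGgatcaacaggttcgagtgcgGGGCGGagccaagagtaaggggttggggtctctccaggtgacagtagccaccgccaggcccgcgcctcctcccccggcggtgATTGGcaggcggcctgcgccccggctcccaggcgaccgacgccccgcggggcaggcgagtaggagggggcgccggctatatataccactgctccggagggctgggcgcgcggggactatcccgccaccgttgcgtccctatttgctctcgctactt
Tdgf1: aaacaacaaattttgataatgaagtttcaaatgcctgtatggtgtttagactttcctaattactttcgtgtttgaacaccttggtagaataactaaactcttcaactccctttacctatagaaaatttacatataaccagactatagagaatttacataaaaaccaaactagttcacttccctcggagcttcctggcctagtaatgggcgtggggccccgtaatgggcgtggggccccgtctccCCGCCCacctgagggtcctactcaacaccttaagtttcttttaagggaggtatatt

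No window of the 6 members held the octamer or TATAAA, which were present in 1.74% and 13.6% of 32851 promoter windows of all genes. A GC box was found at the main start site of each of the 6, with 4 matches in Utf1 and 2 in Sox2 and Fgf4, and in 35.7% of all windows. CCAAT was present in Pou5f1, Sox2 and Fgf4, against 37.4% of all windows, and ACAAAG in Sox2, against 18.7%. Tdgf1 had the lowest share of G and C among the members, 41.7%, and Fgf4 the highest, 69.7%. These matches are letters in a window and say nothing about binding.

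Sox2, the partner of Pou5f1, could not be measured. Its total, B6 and Cast counts were listed at 0 in all 10 samples. The gene (mm10, chr3:34649995-34652460, plus strand, 2466 bp) lies wholly inside Sox2ot, a long noncoding RNA gene on the same strand (chr3:34560381-34677993), and the counter assigned no read pair that fell on more than 1 gene. The same held for every gene in that position: all 1711 genes wholly inside a gene on their own strand were at 0 in all samples, against 3069 of the 22675 others (13.5%). The 0 therefore does not show that Sox2 was silent. Sox2ot itself was counted at 83.8 to 106 CPM, and its log2 change at 24 h was 0.04 (edgeR adjusted p = 0.946). The reads of Sox2ot come from the part of its span that lies outside Sox2, so they are no measure of Sox2.

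**Figure D1:**
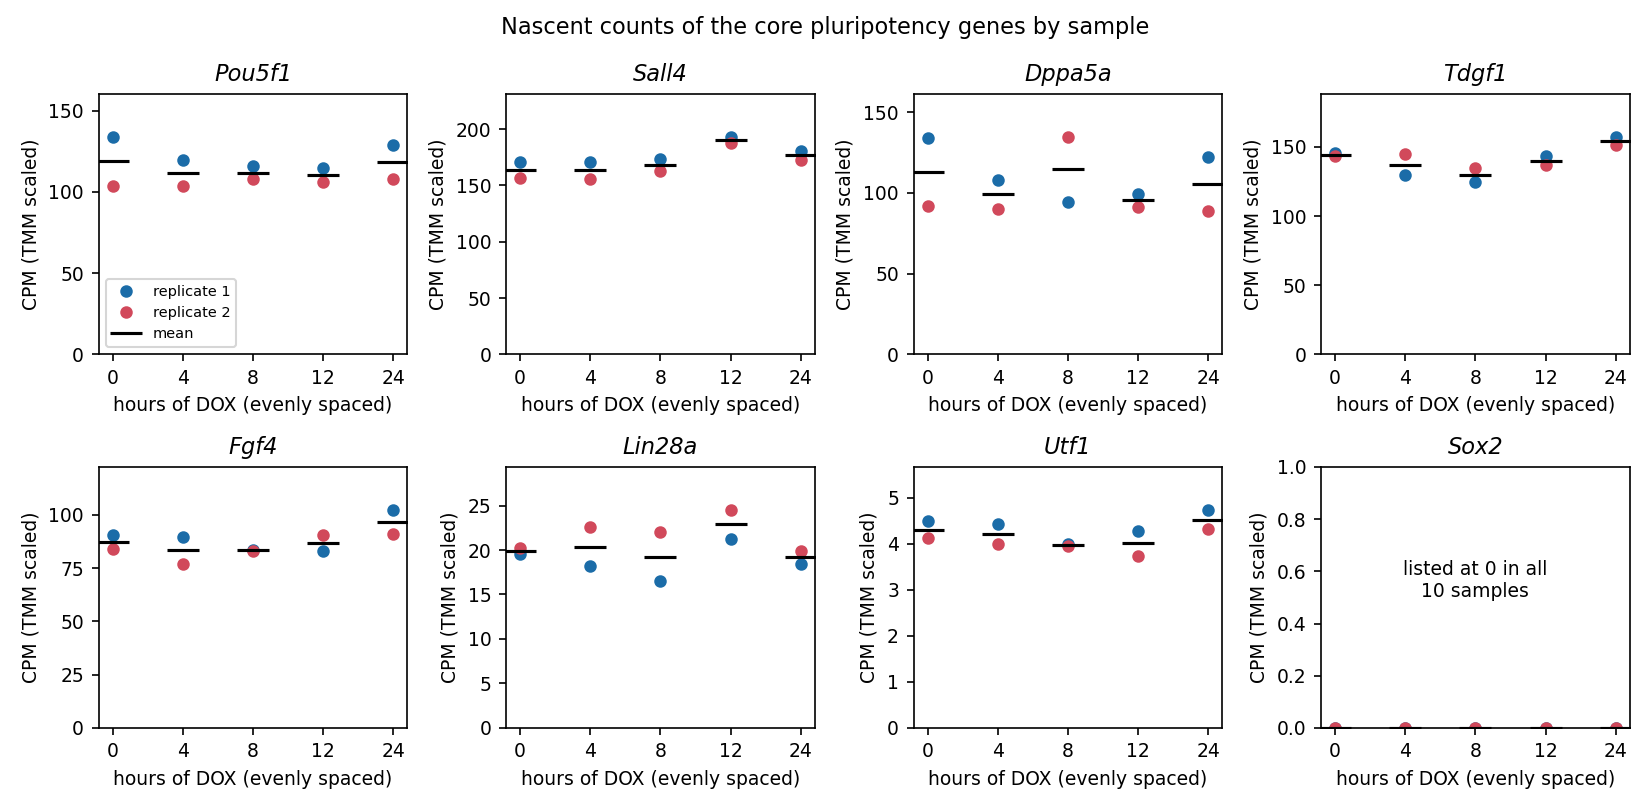
Nascent level of each core pluripotency gene in CPM (vertical axis, from 0) at 0, 4, 8, 12 and 24 h of DOX (horizontal axis, evenly spaced), with replicate 1 in blue, replicate 2 in red and black bars for means of 2 samples. The 7 counted genes stayed within 1.52 times between their lowest and highest sample, and Sox2 is at 0 in all 10.

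Among the transcription factors, Pou5f1 (chr17:35506032-35510777, plus strand) was read at 1972 to 2893 counts per sample. Its level was 134 and 104 CPM at 0 h in replicates 1 and 2, 120 and 104 at 4 h, 116 and 108 at 8 h, 115 and 106 at 12 h, then 129 and 108 at 24 h. The 0 h pair spanned the values of all later samples but replicate 2 at 4 h, which lay just below it, and replicate 1 was the higher at 5 of 5 times. The log2 change at 24 h was -0.00 (SE 0.116, 95% interval -0.25 to 0.24, edgeR adjusted p = 0.997). RefSeq lists 7 pseudogene copies of Pou5f1, and read pairs that match a copy equally well were discarded by the unique alignment, so its level is uncertain on that account.

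Sall4, a zinc finger factor that works with Pou5f1, lies at chr2:168748332-168767201 on the minus strand. Its level was 170 and 157 CPM at 0 h, 171 and 156 at 4 h, 173 and 162 at 8 h, 193 and 187 at 12 h, then 181 and 172 at 24 h. Both 12 h samples lay above both 0 h samples and above every other sample. The log2 change at 12 h was 0.22 (SE 0.0757, 95% interval 0.05 to 0.38), with an unadjusted p of 0.0121 and an adjusted p of 0.263 in edgeR's quasi-likelihood test, so Sall4 did not pass over all genes tested. With the replicate number as a block in the same test the change was the same, 0.22, with an SE of 0.0650 and an adjusted p of 0.0418. At 24 h the change was 0.11 (SE 0.076, interval -0.05 to 0.27, adjusted p = 0.715).

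Utf1, a chromatin factor of pluripotent cells (chr7:139943856-139945112, plus strand), was the least counted member, at 76 to 97 counts per sample. Its level was 4.49 and 4.12 CPM at 0 h, 4.44 and 4.00 at 4 h, 4.00 and 3.94 at 8 h, 4.27 and 3.74 at 12 h, then 4.72 and 4.31 at 24 h. Both 8 h samples were below both 0 h samples, and the ranges at the other times overlapped that at 0 h. The log2 change at 24 h was 0.07, with a 95% interval of -0.30 to 0.44 (adjusted p = 0.954).

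Of the genes that act on RNA, Lin28a blocks the maturation of let-7 microRNAs and lies at chr4:134003330-134018816 on the minus strand. It stood at 19.6 and 20.2 CPM at 0 h, 18.2 and 22.6 at 4 h, 16.5 and 22.0 at 8 h, 21.3 and 24.5 at 12 h, then 18.5 and 19.9 at 24 h. Unlike Pou5f1, Sall4 and Utf1, it was higher in replicate 2 at 5 of 5 times, and the 8 h replicates differed by 1.33 times. Its log2 change at 24 h was -0.05 (interval -0.35 to 0.25, adjusted p = 0.958).

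Dppa5a encodes a small RNA-binding protein of early embryos and lies at chr9:78367054-78368199 on the minus strand. It was the most variable member. Its level was 134 and 91.7 CPM at 0 h, 108 and 90.1 at 4 h, 94.4 and 135 at 8 h, 99.2 and 91.5 at 12 h, then 122 and 88.5 at 24 h. So 3 of the times had 1 high library each, replicate 1 at 0 h, replicate 2 at 8 h and replicate 1 at 24 h, while the other 7 samples lay between 88.5 and 108 CPM. The log2 change at 24 h was -0.10 (SE 0.182, interval -0.49 to 0.29, adjusted p = 0.923). RefSeq lists 2 pseudogene copies, Dppa5b and Dppa5c, so read pairs shared with them would have been lost.

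The same 3 libraries were the highest of 10 for the summed level of 76 ribosomal protein genes, a comparison chosen after the values were seen. That sum was 11530 CPM at 0 h replicate 1, 10640 at 8 h replicate 2 and 11030 at 24 h replicate 1, and ran from 9277 to 10160 in the other 7. The median Pearson correlation of log2 CPM with Dppa5a over the 10 samples was 0.836 for these genes and -0.00226 for all tested genes. The closest single genes were Rpl7a (0.976), Rpl19 (0.976), Rpl36al (0.973), Atp5a1 (0.973) and Rps4l (0.969). All these values share the same 10 libraries and their scaling, and the part of the libraries in Dppa5a's spread was not tested.

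**Figure D2:**
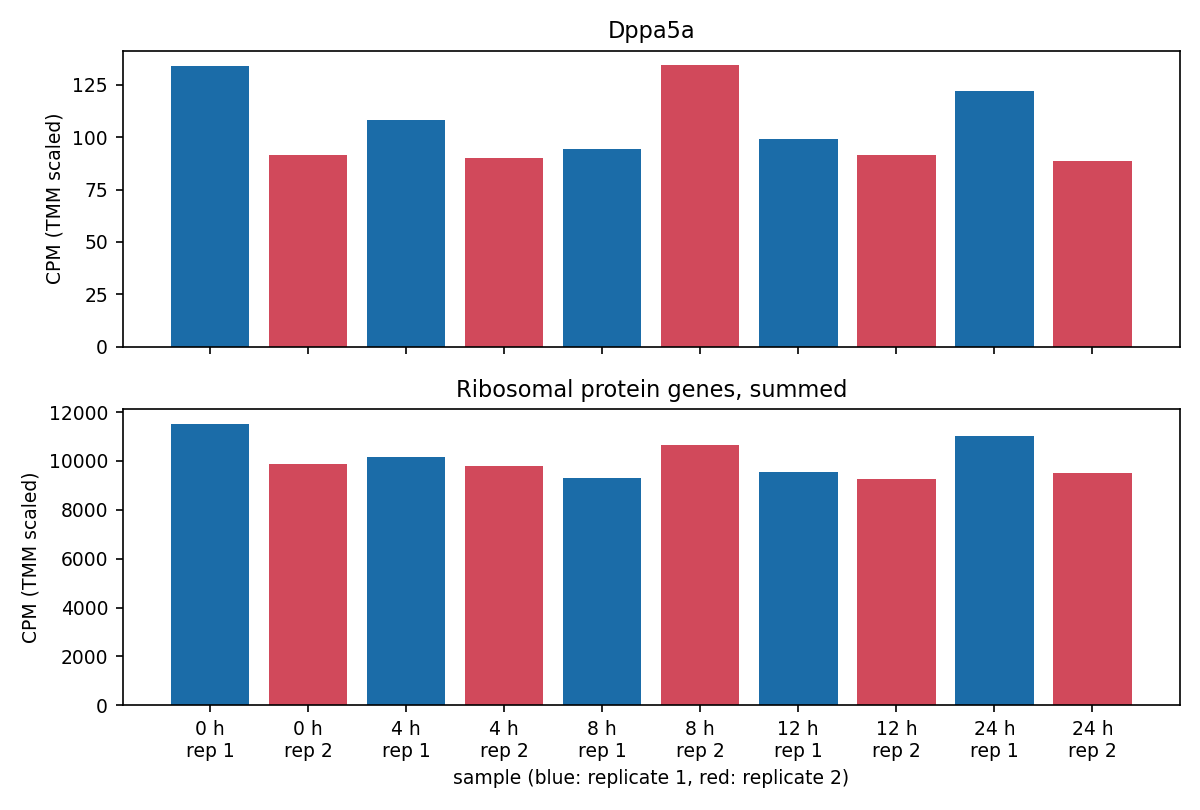
Level of Dppa5a (top) and summed level of 76 ribosomal protein genes (bottom) in CPM, 1 bar per sample, blue for replicate 1 and red for replicate 2. The samples at 0 h replicate 1, 8 h replicate 2 and 24 h replicate 1 are the 3 highest in both panels.

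The signalling members are Fgf4, a secreted growth factor through which stem cells drive themselves towards differentiation, and Tdgf1 (Cripto), a co-receptor for the ligand Nodal. Fgf4 (chr7:144861386-144865245, plus strand) stood at 90.5 and 83.9 CPM at 0 h, 89.6 and 77.1 at 4 h, 83.5 and 83.2 at 8 h, 83.2 and 90.5 at 12 h, then 102 and 91.2 at 24 h. The 24 h samples lay above both 0 h samples, by a log2 change of 0.15 (SE 0.0892, interval -0.04 to 0.34, adjusted p = 0.65). Fitted as a slope over all 10 samples, its change was 0.18 per 24 h (SE 0.0797), with an unadjusted p of 0.0323 and an adjusted p of 0.303, so the slope did not pass.

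Tdgf1 (chr9:110939608-110946158, minus strand) stood at 145 and 143 CPM at 0 h, 129 and 145 at 4 h, 125 and 135 at 8 h, 143 and 137 at 12 h, then 157 and 152 at 24 h. Both 8 h samples were below both 0 h samples, and both 24 h samples were above them. At 8 h the log2 change was -0.15 (SE 0.0766, interval -0.32 to 0.01, adjusted p = 0.996), and at 24 h it was 0.10 (SE 0.0763, interval -0.07 to 0.26, adjusted p = 0.753). Tdgf1 has 2 pseudogene copies in RefSeq, with the same limit as for Pou5f1.

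Across the time course no member was called changed at an adjusted p of 0.05: 0 of 7 at 4 h, where 0.0138% of the 14525 genes tested were called, 0 of 7 at 8 h (background 0.193%), 0 of 7 at 12 h (0.95%), 0 of 7 at 24 h (1.85%) and 0 of 7 for the slope (3.15%). At an unadjusted p under 0.05 there were 0, 0, 1, 0 and 1 members, Sall4 at 12 h and Fgf4 for the slope, and DESeq2 and limma also called 0 at each time. With background shares this low, 0 of 7 sets the members apart from no other genes. The replicate numbers paired the samples in total counts, and the block raised the calls over all genes from 138 to 718 at 12 h and from 269 to 773 at 24 h, with Sall4 at 12 h the only member added. With 2 samples against 2, an exact permutation test could not go below a two-sided p of 0.333, so no such test was made for single genes.

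The 95% intervals give the precision of each change in the model without the replicate block, which leaves shifts between replicate numbers in the error. Over the 4 times and 7 genes they ran from -0.63 (Dppa5a at 12 h) to 0.50 (Lin28a at 12 h) on the log2 scale. The median log2 change of the 7 members went from -0.06 (4 h) and -0.07 (8 h) through -0.04 (12 h) to 0.07 (24 h), beside medians over all genes tested of 0.00, -0.00, -0.00 and 0.01. Without replicate 1 at 0 h these medians were 0.04, -0.00, 0.06 and 0.18, still with 0 members called. The 4 h median was also above 0 without replicate 2 at 4 h (0.011), and that at 24 h was -0.0060 without replicate 2 at 0 h and -0.0048 without replicate 1 at 24 h. The sign of the small medians at 4, 12 and 24 h thus turned with the choice of libraries. By ranges, 3 of 7 members (Sall4, Fgf4 and Tdgf1, all higher) had both 24 h samples outside the 0 h range, as did 36.3% of all genes tested. No such share is given for other times, so the ranges of single genes that separated at 8 or 12 h have no background.

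**Figure D3:**
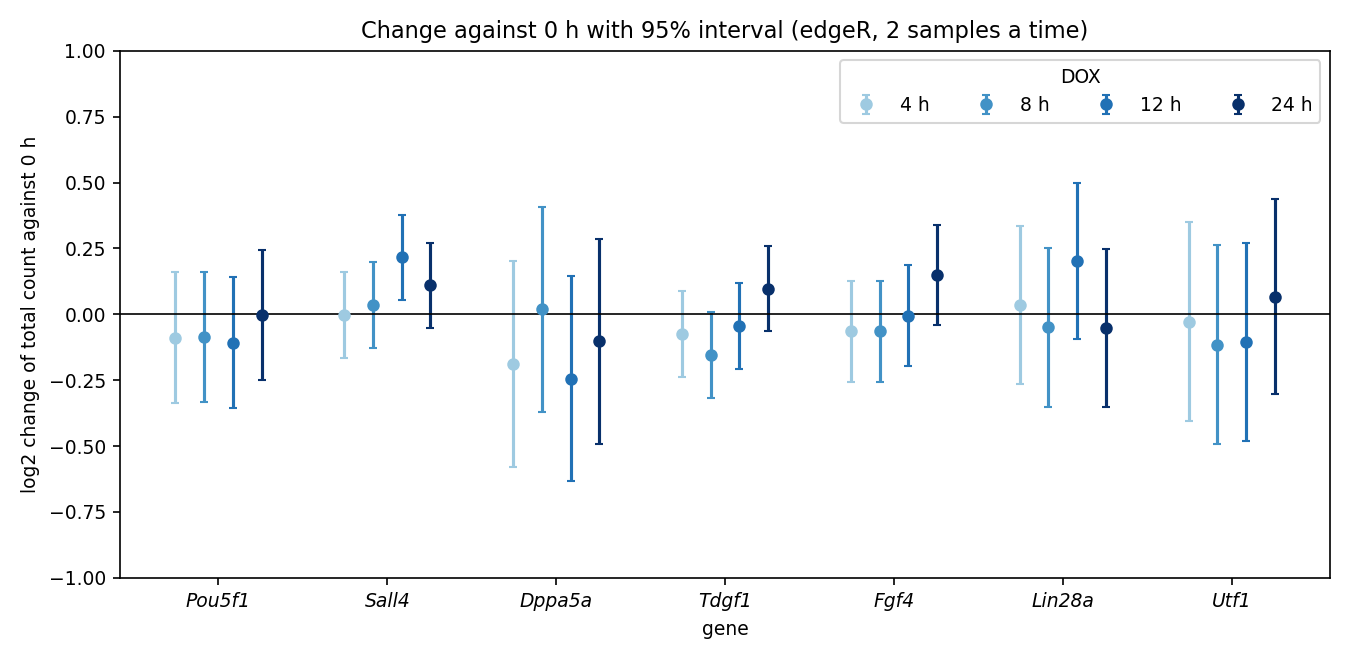
Log2 change of the total count against 0 h (vertical axis) for the 7 counted members (horizontal axis) at 4, 8, 12 and 24 h, from light to dark blue. Points are edgeR estimates from 2 samples a time and bars are 95% intervals, both without the replicate block. All intervals but that of Sall4 at 12 h, 0.05 to 0.38, include 0, and all lie between -0.63 and 0.50.

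Per kb of counted gene span, introns included, the members ranged widely, and levels are compared between genes on this scale alone. Dppa5a was highest, at 92.0 ± 16.0 CPM per kb (SD, n = 10), followed by Pou5f1 at 24.1 ± 2.23, Fgf4 at 22.7 ± 1.78, Tdgf1 at 21.5 ± 1.51, Sall4 at 9.13 ± 0.644, Utf1 at 3.34 ± 0.236 and Lin28a at 1.31 ± 0.151. The middle of this order did not separate: Pou5f1 was above Fgf4 in 8 of 10 samples and Fgf4 above Tdgf1 in 7 of 10, with overlapping ranges. All other neighbours kept their order in 10 of 10 samples with ranges that did not overlap. The order was the same at the whole deposited length, since no counted member shares bases with another gene on its strand.

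The spread over the 10 samples was compared with that of all genes tested. The SD of log2 CPM was 0.101 for Sall4 and Utf1, 0.102 for Tdgf1, 0.111 for Fgf4, 0.130 for Pou5f1, 0.166 for Lin28a and 0.240 for Dppa5a, beside a median of 0.138 over all genes tested. Thus 5 members were under that median, and Lin28a and Dppa5a were over it, with 58.4% and 73.6% of genes having a smaller SD. These are descriptions that mix time, replicate and depth, and low genes vary more from counting alone.

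The genes most like the members were found by the Pearson correlation of log2 CPM with the members' mean profile, over 10 samples and 14518 other genes. They were Prr14 (0.943), Psmc1 (0.922), Trpt1 (0.917), Sh3bgrl3 (0.913) and Mfsd10 (0.905). With 14518 genes ranked over 10 samples, values this high can arise by chance, and these were not tested. The members' mean profile was highest in replicate 1 at 24 h (0.13 above the mean on the log2 scale) and in replicate 1 at 0 h (0.11 above), and lowest in replicate 1 at 8 h (a difference of -0.10).

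The 2 alleles gave another readout. The d-score is the share of allele-assigned read pairs that came from B6, so 0.5 is an equal share, and the 7 members had 21 to 2245 such pairs per sample. None lies on the X chromosome, and the autosomal median d-score was 0.522 (quartiles 0.479 and 0.567, 11543 genes). In all, 2 members leaned to B6 and 3 to Cast by edgeR's test of the B6 to Cast ratio over all 10 samples. Over all 11906 genes tested, 48.6% were called with B6 higher and 25% with Cast higher, so a call in either direction is common.

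Fgf4 had d-scores of 0.592 and 0.624 at 0 h, 0.572 and 0.616 at 4 h, 0.631 and 0.604 at 8 h, 0.648 and 0.611 at 12 h, then 0.639 and 0.637 at 24 h. Its mean was 0.617 ± 0.0235 (SD, n = 10), a log2 ratio of B6 to Cast of 0.69 (SE 0.0446, adjusted p = 2.48e-11). Tdgf1 had 0.613 ± 0.0202 (range 0.584 to 0.647), a log2 ratio of 0.67 (SE 0.0323, adjusted p = 2.44e-13). All 10 samples of both genes were above 0.5, and 86.7% and 86.2% of autosomal genes had a lower mean d-score. Fgf4 and Tdgf1 were the 2 members called with B6 higher, as were 48.6% of all genes tested.

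Dppa5a leaned the other way, with a d-score of 0.423 ± 0.0256 (range 0.383 to 0.457) and a log2 ratio of -0.45 (SE 0.0416, adjusted p = 7.67e-09), below 0.5 in 10 of 10 samples. Lin28a had 0.451 ± 0.0343 (range 0.381 to 0.490) and a log2 ratio of -0.28 (SE 0.0635, adjusted p = 0.000554), also below 0.5 in all 10. Sall4 stood close to balance at 0.488 ± 0.0149 (range 0.466 to 0.503), with a log2 ratio of -0.07 (SE 0.0283, adjusted p = 0.042). The Sall4 call was lost in DESeq2 (adjusted p = 0.125) and without any 1 of 4 libraries: replicate 2 at 0 h (0.0964), replicate 1 at 4 h (0.109), replicate 1 at 8 h (0.113) and replicate 2 at 8 h (0.0813).

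Pou5f1 and Utf1 did not pass. Pou5f1 had a d-score of 0.511 ± 0.0284 (range 0.447 to 0.536) and a log2 ratio of 0.06 (adjusted p = 0.225). Without replicate 1 at 4 h, its lowest sample, Pou5f1 was called at 0.10 (adjusted p = 0.0303). Utf1 had 0.440 ± 0.0657 (range 0.345 to 0.553) from only 21 to 46 allelic pairs per sample, and a log2 ratio of -0.34 (SE 0.151, adjusted p = 0.0533). Utf1 was called without replicate 2 at 0 h (0.0455), replicate 1 at 4 h (0.0419), replicate 2 at 12 h (0.0486) or replicate 2 at 24 h (0.0212).

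A ratio of 1 is not the centre of these data, since the median log2 ratio of all genes was 0.12. Scaled to the autosomal totals of each allele, that median was -0.00, the share of calls with B6 higher went from 66% to 50.4%, and 6 of 7 members were called. Fgf4 and Tdgf1 then had log2 ratios of 0.57 and 0.55, and Sall4, Lin28a, Utf1 and Dppa5a of -0.19, -0.40, -0.46 and -0.56. Pou5f1 alone turned its sign, to -0.06, and was not called on either scale.

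**Figure D4:**
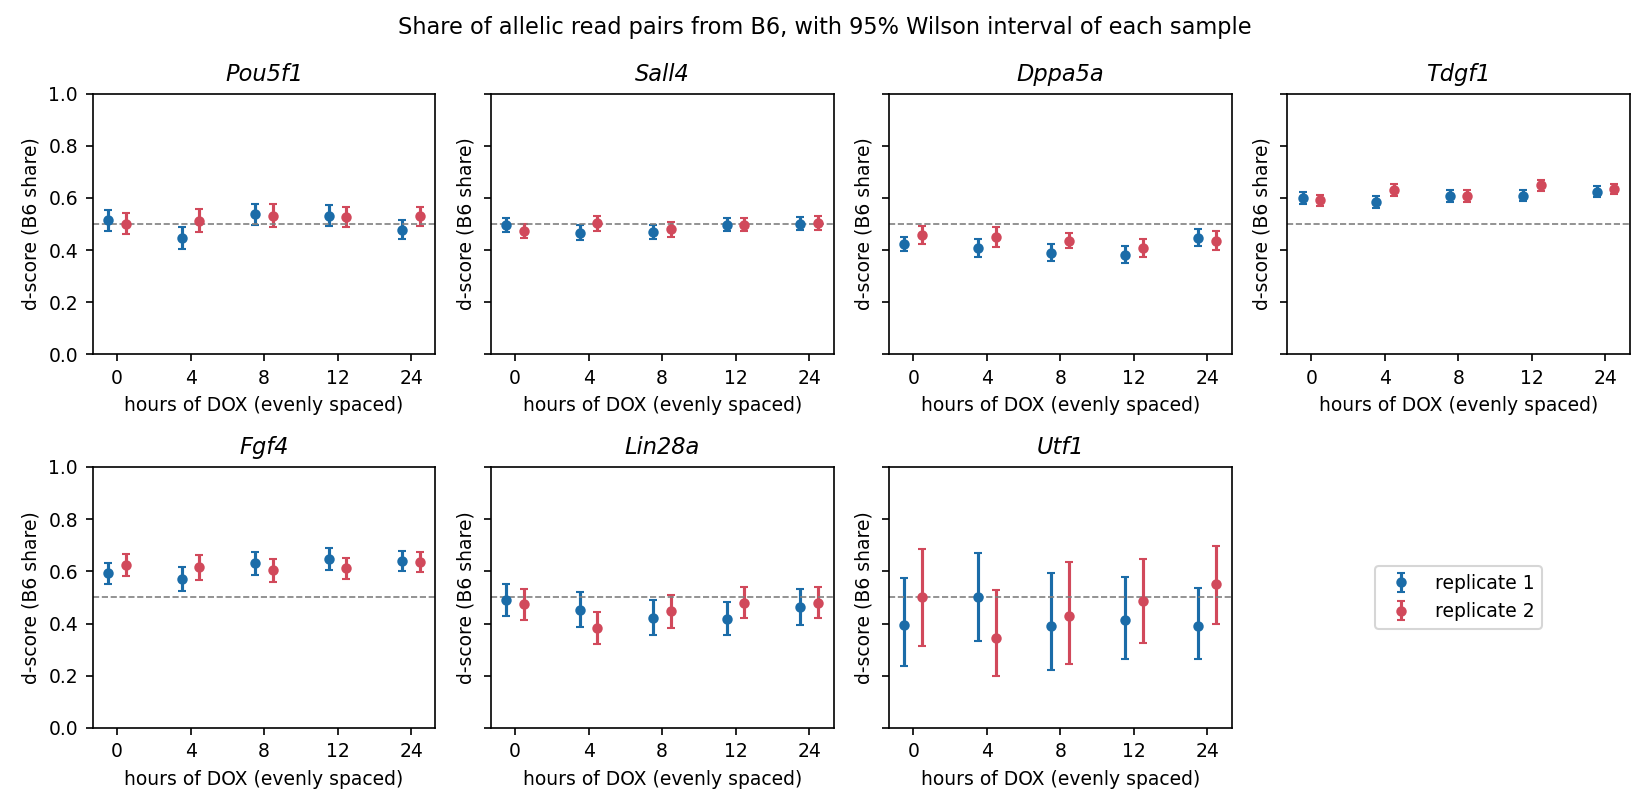
Share of allele-assigned read pairs from B6 (d-score, vertical axis from 0 to 1) by hours of DOX (horizontal axis, evenly spaced) for the 7 counted members, blue for replicate 1 and red for replicate 2; bars are 95% Wilson intervals of each sample and the dashed line is an equal share. Fgf4 and Tdgf1 lie above the line and Dppa5a and Lin28a below it at every time, and Utf1 has the widest bars, from 21 to 46 allelic pairs.

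Over time the allelic share of the members was called changed for 0 of 7 at 4 h (background 0.361% of 11906 genes), 0 of 7 at 8 h (1.66%), 0 of 7 at 12 h (2.15%) and 0 of 7 at 24 h (2.64%). At an unadjusted p under 0.05 there were 0, 0, 2 and 1 members, and DESeq2 also called 0 at each time. The nearest to a call was Tdgf1, with d-scores of 0.599 and 0.591 at 0 h, 0.584 and 0.631 at 4 h, 0.606 and 0.608 at 8 h, 0.609 and 0.647 at 12 h, then 0.623 and 0.634 at 24 h. Both samples at 8, 12 and 24 h were above both at 0 h. These times share the same 0 h pair, and no share of all genes with such a separation is given for d-scores. On the log2 scale the ratio of B6 to Cast differed from 0 h by 0.20 at 12 h (SE 0.0776, adjusted p = 0.32), and the 24 h difference was 0.21 (SE 0.0763, interval 0.05 to 0.36, adjusted p = 0.231). Without replicate 1 at 12 h the 12 h change was 0.32 (adjusted p = 0.046), the only member call over time in any run that left out 1 library.

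Dppa5a was lower at 12 h, again without passing. Its d-scores were 0.422 and 0.457 at 0 h and 0.383 and 0.408 at 12 h, a log2 change of -0.24 with an adjusted p of 0.568, and 0.447 and 0.435 at 24 h, a change of 0.03 (adjusted p = 0.994). For Utf1 the intervals ran from -1.46 to 1.22, with an SE of 0.553 to 0.638 at the 4 times, the widest of the 7 members tested.

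The other genes of the pluripotency network were described from 3 lists. Of 14 naive genes, all tested, 0 were called in total counts at any time, with a median log2 change at 24 h of 0.01. Between 0.0138% (4 h) and 1.85% (24 h) of all genes tested were called, so 0 of 14 sets the naive genes apart from no others. Nanog, Esrrb and Tfcp2l1, factors of the naive network, had log2 changes at 24 h of -0.00 each (adjusted p = 0.998, 0.999 and 0.995). With the replicate block, Nr0b1 (-0.36) and Nr5a2 (0.24) were called at 12 h and Tbx3 (0.24) at 24 h, with adjusted p of 0.0222, 0.0285 and 0.0359. Nr0b1 lies on the X chromosome and lost its B6 share, from a d-score of 0.476 ± 0.00255 (SD, n = 2) at 0 h to 0.109 ± 0.000564 at 24 h, a log2 change of -2.89 (adjusted p = 1.33e-25), while its total level was 25.6 ± 0.457 and 25.9 ± 2.39 CPM.

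Of 15 partner genes of the Pou5f1 and Sox2 network, 1 fell at 12 h and at 24 h, Lefty1, a secreted inhibitor of Nodal. Over all genes tested, 0.95% were called at 12 h and 1.85% at 24 h, in either direction. Lefty1 stood at 20.4 and 18.5 CPM at 0 h, 17.3 and 17.3 at 4 h, 13.2 and 18.6 at 8 h, 10.2 and 11.5 at 12 h, then 10.1 and 10.5 at 24 h. All samples at 12 and 24 h were below every sample before 12 h. The 12 h log2 change was -0.84 (SE 0.146, adjusted p = 0.0092), that at 24 h -0.91 (SE 0.147, adjusted p = 0.00255). The 12 h call was lost without replicate 1 at 0 h (adjusted p = 0.087) or either 12 h sample (0.171 and 0.0535), and the 24 h call was kept in all runs (at most 0.0433). Tdgf1, the co-receptor of the same ligand, was not called at these times, and the difference between the 2 genes was not tested.

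Of 13 formative and primed genes, which rise when cells leave the naive state, 0 were called higher and 1, Otx2, lower at 24 h. Of all 14525 genes tested, 45 were called higher and 224 lower, so 0 of 13 called higher sets the list apart from no others. The formative and primed list's median log2 change at 24 h lay above 0 (0.09, against 0.01 for all genes tested). Its median slope per 24 h did too (0.12 against 0.01). Midway the median change had been negative, with -0.14 (8 h) and -0.21 (12 h). These medians were not tested, and they include genes near the floor. Among these, 1 on the X chromosome had 3 to 12 counts per sample, and others had 4 to 17 and 12 to 30. Otx2, a factor of formative cells, stood at 5.92 and 6.04 CPM at 0 h, 5.22 and 6.00 at 4 h, 4.47 and 4.96 at 8 h, 3.48 and 3.83 at 12 h, then 3.31 and 3.36 at 24 h. Each of the 12 h and 24 h samples was below every sample before 12 h. The log2 change at 24 h was -0.84 (SE 0.171, adjusted p = 0.0159), and the slope over all samples -0.92 per 24 h (adjusted p = 0.00216). The 24 h call was lost in DESeq2 (adjusted p = 0.0515) and without any 1 of the 0 h samples (0.0754 and 0.0704) or the 24 h samples (0.13 and 0.131). With the block, Otx2 was called at 12 h too (adjusted p = 0.0068), as was Lef1 at 12 h (-0.39, adjusted p = 0.00068) and 24 h (-0.31, adjusted p = 0.00693).

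**Figure D5:**
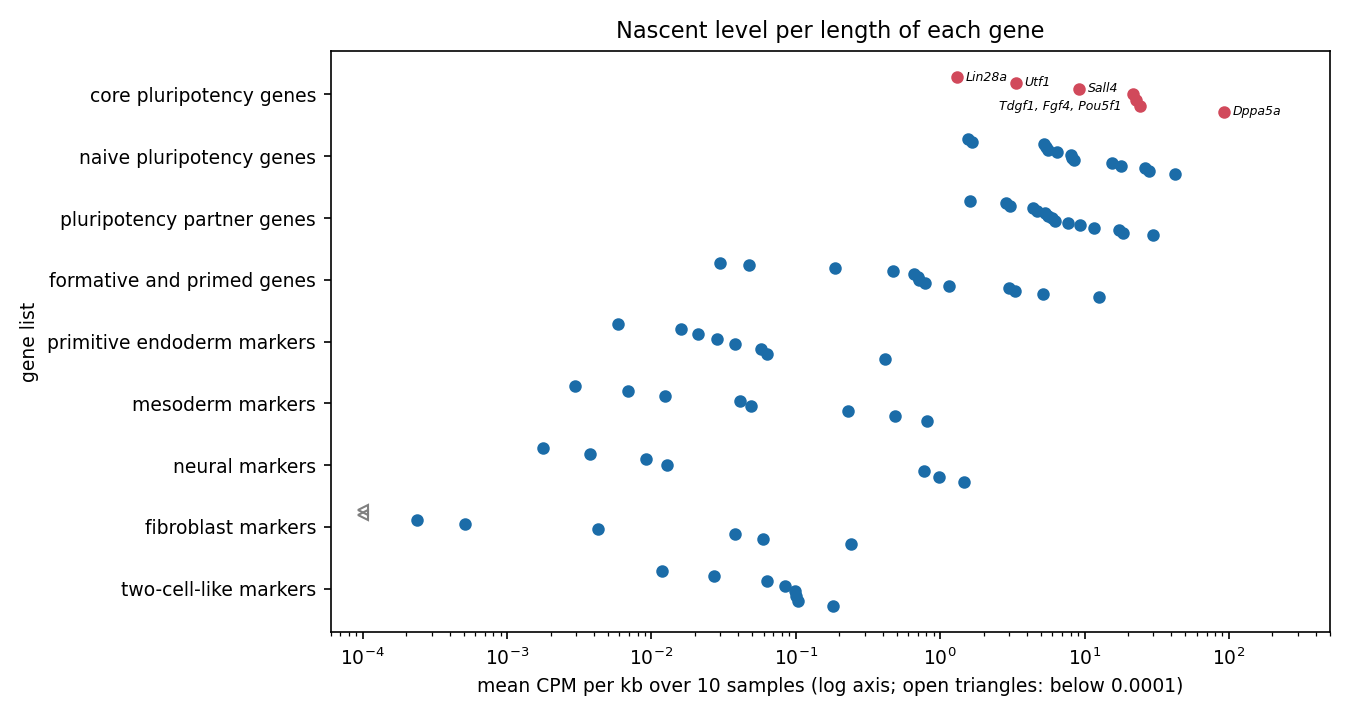
Mean CPM per kb over 10 samples (horizontal axis, logarithmic) of every gene of the core list (red) and of 8 other lists (blue); open triangles are genes below 0.0001, and Sox2 and Sox1, which lie wholly inside other genes, are left out. The core, naive and partner lists lie at medians of 21.5, 8.12 and 5.94, and the 5 lists of markers of other cell types have medians below 0.1, with single markers up to 1.46 (Olig2).

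Markers of other cell types were mostly low, with exceptions. The median level per length of gene was 21.5 CPM per kb for the members, 8.12 for naive, 5.94 for partner and 0.715 for formative and primed genes, against 0.0331 for primitive endoderm, 0.0450 for mesoderm, 0.0127 for neural, 0.00240 for fibroblast and 0.0914 for 2-cell-like markers, the last a rare state within such cultures. Single markers lay well above these medians: Olig2 at 1.46 CPM per kb, above the member Lin28a, then Tubb3 at 0.976, T at 0.815, Nes at 0.776, Cdx2 at 0.485 and Col4a1 at 0.417. The summed level of the 8 fibroblast markers was 3.16 to 4.72 CPM at 0 h and 3.72 to 4.67 at 24 h, with Lum and Postn at 0 in all samples. That of the mesoderm markers was 13.3 to 16.3 CPM at 0 h and 10.9 to 13.1 at 24 h, that of the neural markers 20.3 to 25.9 and 17.0 to 22.9, that of the primitive endoderm markers 58.5 to 64.6 and 58.7 to 61.2, and that of the 2-cell-like markers 2.17 to 2.93 and 1.70 to 2.36. Of 8 markers a list, 6 of primitive endoderm, 4 of mesoderm, 3 of neural, 3 of fibroblast and 4 of 2-cell-like cells were tested. Of those tested, 0 were called in total counts at any time, beside 0.0138% (4 h) to 1.85% (24 h) of all genes tested. A marker left untested could not be called. With the block, Tubb3 was called at 12 h (0.46, adjusted p = 0.0236) and Cdx2 at 24 h (-0.69, adjusted p = 0.0456). At these times the block called 718 and 773 of the 14525 genes tested. Among the neural markers Sox1 was at 0, being, like Sox2, wholly inside another gene.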

How the data were processed

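TT-seq of 10 samples was used, 2 at each of 5 times. Per the paper's methods, the authors trimmed reads with Cutadapt, aligned them uniquely with STAR to mm10 with variant positions masked, split alleles with SNPSplit and counted stranded read pairs per gene with featureCounts 1.5.1, leaving out pairs on more than 1 gene; the submitters' processing notes also name TopHat2 2.1.0 and bedtools. The deposited files hold raw counts per gene (total, B6 and Cast) and the authors' allelic share, a fraction from 0 to 1, which was recomputed from the counts for genes with at least 10 allelic reads. Removal of duplicates and spike-in scaling are not given in the sources used here. Starts were deposited counting from 0 and are printed counting from 1.

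Total counts of 14525 genes that passed edgeR's filter were scaled by TMM and tested with edgeR 4.0.16 (quasi-likelihood, R 4.3.3), with time as a factor or as a slope. B6 and Cast counts of 11906 genes were tested in a model with an intercept per sample and allele terms, on equal column sizes. p-values were adjusted by Benjamini-Hochberg over all genes tested, at a threshold of 0.05, and intervals are 95%; those of single samples are Wilson intervals and cover counting error only. Alternatives were DESeq2 1.42.0, limma 3.58.1 (voom), DESeq2's size factors, no filter, a minimum of 50 allelic reads, autosomal scaling, a replicate block, only the times compared, raw library sizes, whole gene length and leaving out each sample.

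Same-numbered samples deviated together in total counts in all 10 pairs of times (correlation of deviations 0.132 to 0.253, mean 0.196), so the numbers pair those samples. Blocked values are given where they change a member's call. Of the calls that the block changed in the other lists, only a part is given. The labels do not say what the numbers share.

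The members and lists were chosen with earlier results of these data known. All members are named; from the other lists, genes called at any time or the highest in level, at most 4 a list; as most like, the 5 genes with the highest correlation. Genes outside this rule (Nanog, Nr5a2, Tbx3, Lef1, Olig2, Tubb3, T, Nes, Cdx2, Col4a1, Sox1, Lum, Postn and the genes most like Dppa5a) were named after their values were seen. Results for 1 gene of the partner list are not reported here.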

Additional observations from a re-analysis of the deposited data

How the results depend on the processing

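Of 1038 values of single members under the alternatives, 959 kept their direction and their side of the threshold, 13 crossed the threshold and 66 changed sign, the latter all with values called neither before nor after. The number of members called moved from 0 to 1 at 12 h with the replicate block, and from 0 to 1 in the B6 share at 12 h without replicate 1 at 12 h; leaving out each sample otherwise gave 0 members at each time. For the B6 to Cast ratio over all times, 4 to 6 members were called when each sample was left out, 4 with DESeq2 and 6 with autosomal scaling, against 5. Other settings that gave values changed no member's call.

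The sign changes came mostly from leaving out each sample, with these ranges of log2 changes. For Pou5f1 the total ran from -0.27 to 0.12 at 4 h, -0.27 to 0.12 at 8 h, -0.29 to 0.090 at 12 h, -0.19 to 0.20 at 24 h and -0.13 to 0.14 for the slope, and the B6 share ran from -0.35 to 0.028 at 4 h and -0.17 to 0.12 at 24 h. For Sall4 the total ran from -0.072 to 0.069 at 4 h and -0.035 to 0.10 at 8 h, and the B6 share ran from -0.11 to 0.10 at 4 h. For Utf1 the total ran from -0.11 to 0.045 at 4 h, -0.0060 to 0.14 at 24 h and -0.037 to 0.13 for the slope, and the B6 share ran from -0.59 to 0.33 at 4 h, -0.52 to 0.10 at 8 h, -0.30 to 0.32 at 12 h and -0.30 to 0.63 at 24 h. For Lin28a the total ran from -0.13 to 0.18 at 4 h, -0.27 to 0.14 at 8 h and -0.067 to 0.066 for the slope. For Dppa5a the total ran from -0.44 to 0.12 at 4 h, -0.27 to 0.33 at 8 h, -0.51 to 0.058 at 12 h, -0.36 to 0.20 at 24 h and -0.34 to 0.087 for the slope, and the B6 share ran from -0.17 to 0.076 at 4 h and -0.088 to 0.12 at 24 h. For Fgf4 the total ran from -0.18 to 0.040 at 4 h and -0.078 to 0.055 at 12 h, and the B6 share ran from -0.21 to 0.053 at 4 h and -0.035 to 0.16 at 8 h. For Tdgf1 the total ran from -0.16 to 0.00081 at 4 h, and the B6 share ran from -0.065 to 0.22 at 4 h. Outside these runs, Sall4 at 4 h was at 0.00068 with DESeq2's size factors and 0.00070 with DESeq2, Pou5f1 at 24 h was at 0.0019 with limma and 0.00023 with the replicate block, and the B6 to Cast ratio of Pou5f1 over all times was -0.056 with autosomal scaling.

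Calls over all genes depended more on the setting. At 8 h they were 28, against 53 with no filter, 54 with DESeq2, 7 with only the times compared, 108 with the block and 5 to 29 leaving out each sample. At 12 h they were 138, against 266 with no filter, 84 with only the times compared, 718 with the block (39.6% higher, against 10.1%) and 53 to 222 leaving out each sample. At 4 h they were 2, against 5 with the block, at 24 h 269 against 773 with the block (35.1% higher, against 16.7%) and 131 to 268 leaving out each sample, and for the slope 458 against 824 with the block and 300 to 450. In the B6 share, DESeq2 called 16 against 43 at 4 h and 126 against 198 at 8 h. The cause was not tested.

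In the B6 to Cast ratio, same-numbered samples deviated together far more weakly than in total counts (correlations 0.000396 to 0.0324, mean 0.0181, 0 of 10 pairs above 0.1). For this ratio the replicate block gave 54, 214, 279 and 343 calls at 4, 8, 12 and 24 h, with 0 members. Without the block there were 43, 198, 256 and 314. Over all times the block gave 8770 calls, against 8761. Depth limits Utf1 most, with 76 to 97 counts and 21 to 46 allelic pairs per sample.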
